A study of Mus musculus with 6 samples.

Results

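Chromosome 7 of the mouse was examined in a list of regions from capture of the long noncoding RNA Meg3 in insulinoma cells. Whether a listed region exceeded the input or the vector clone cannot be read from that list. The members were all rows of the deposited list that carry chromosome 7 as their chromosome, whatever their width. There were 509 such regions of 9010 in the list, of which 9005 lay on nuclear chromosomes. MIN6-4N cells, which derive from an insulinoma of mouse islet beta cells, were used as stable clones, selected with 750 µg/ml of the drug G418 and then grown in 500 µg/ml. One clone (V3) carried the empty pcDNA3.1 vector and the other (M5) carried pcDNA3.1 with Meg3, so that all 6 libraries came from transfected, drug-selected cells and each condition rests on 1 clone. Each clone, fixed with 1% glutaraldehyde, was sequenced once as input chromatin without probe, once after capture with the odd Meg3 probe pool and once after capture with the even pool. The list analysed is named for the Meg3 clone. It holds no value per library, so neither the Meg3 and vector clones nor the odd and even probes could be compared, and there are no replicates from which to take a spread.

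Chromatin isolation by RNA purification (ChIRP) captures a chosen RNA with biotinylated antisense probes and reads the DNA that was cross-linked close to it. Meg3 is itself imprinted: it is transcribed from the maternal copy of the Dlk1-Dio3 cluster on chromosome 12, and it has been linked to Polycomb repressive complexes and to restraint of tumour growth. Chromosome 7 carries several of the best known imprinted clusters of the mouse, in which 1 parental copy of a gene is silent. Near its distal end lie H19, a maternally expressed noncoding RNA, Igf2, a paternally expressed growth factor, and Ins2, which encodes 1 of the mouse insulins and is among the most active genes of beta cells. Beside them, Kcnq1ot1 is a long noncoding RNA transcribed from the paternal copy that silences neighbouring genes in cis, among them Cdkn1c, an inhibitor of the cell cycle.

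A list of 29 imprinted genes of chromosome 7 was set up for the analysis, and all 29 were found on this chromosome in the RefSeq table, which is on GRCm38. In that table the gene order was Zim1, Peg3, Usp29 and Zim3, then Atp10a, Ube3a, Snrpn, Snurf, Ndn, Magel2, Mkrn3 and Peg12, then Ampd3 and Inpp5f. The distal genes followed as H19, Igf2, Ins2, Ascl2, Cd81, Tssc4, Kcnq1, Kcnq1ot1, Cdkn1c, Slc22a18, Phlda2, Nap1l4, Tnfrsf23, Osbpl5 and Dhcr7. Ffar1, a fatty acid receptor of beta cells, and Kcnj11 and Abcc8, the subunits of the ATP-sensitive potassium channel that couples glucose to insulin release, were also on chromosome 7. The regions themselves are on mm9, and 37 of the 509 start beyond the end of the last chromosome 7 gene of the GRCm38 table. Positions were therefore not carried from one build to the other: no region is assigned to a gene, and whether any region overlaps Ins2, Igf2, H19 or Kcnq1ot1 was not analysed here. Sequences of the regions were not analysed here either. The distal domain is used below as a position range on mm9, from 149 Mb to the last listed region, and is named for the genes it is known to hold.

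Chromosome 7 was close to the other autosomes in how many regions it held and differed more in how they were arranged. The 509 regions ran from 3314600 to 152461278, a span of 149 Mb, at 3.41 regions per Mb (95% exact Poisson interval 3.12 to 3.72). The other 18 autosomes together held 8389 regions at 3.72 per Mb. The ratio of 0.917 (95% interval 0.837 to 1.00) did not pass an exact conditional test of the rates (two-sided p = 0.0588). Of the 18 other autosomes, 12 were denser and 6 sparser, with chromosome 14 lowest at 2.30 per Mb and chromosome 1 highest at 5.32. Chromosome 7 thus held 5.72% of autosomal regions (exact 95% Clopper-Pearson interval from 5.25 to 6.22), and its share of the autosomal span was 6.21%. These intervals and tests cover counting error only, and they treat regions as independent of each other. With stretches over 2 Mb without a region taken out of every span, which removes sequence because it is empty and removes more of it on chromosome 7, the density was 4.14 per Mb on chromosome 7 and 4.04 on the others (ratio 1.02, 95% interval 0.935 to 1.12, exact two-sided p = 0.596). Without the longest empty stretch of chromosome 7 alone the ratio was 0.965 (0.881 to 1.06).

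The arrangement along the chromosome was patchy. Counts in 148 full windows of 1 Mb averaged 3.39 regions, and their variance was 3.14 times their mean, where independent even placement gives a ratio of 1. That ratio was the highest of the 19 autosomes. The others ran from 1.30 on chromosome 18 through a median of 2.00 to 3 on chromosome 4, so the lead over chromosome 4 was small. No region at all was listed in 26 of the 148 windows (17.6%), a share exceeded only on chromosome 14 (19.5%). At the other extreme, the fullest 15 windows held 154 of the 502 regions in full windows, or 30.7%. The corresponding share on the other autosomes, over the fullest 10% of their windows, ran from 23.0% to 29.6% with a median of 24.9%. Counting in windows of 2 Mb put chromosome 7 at 4.19, behind chromosome 4 at 4.47. No test was made of these ratios, since regions of 1 list are not replicates.

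**Figure D1:**
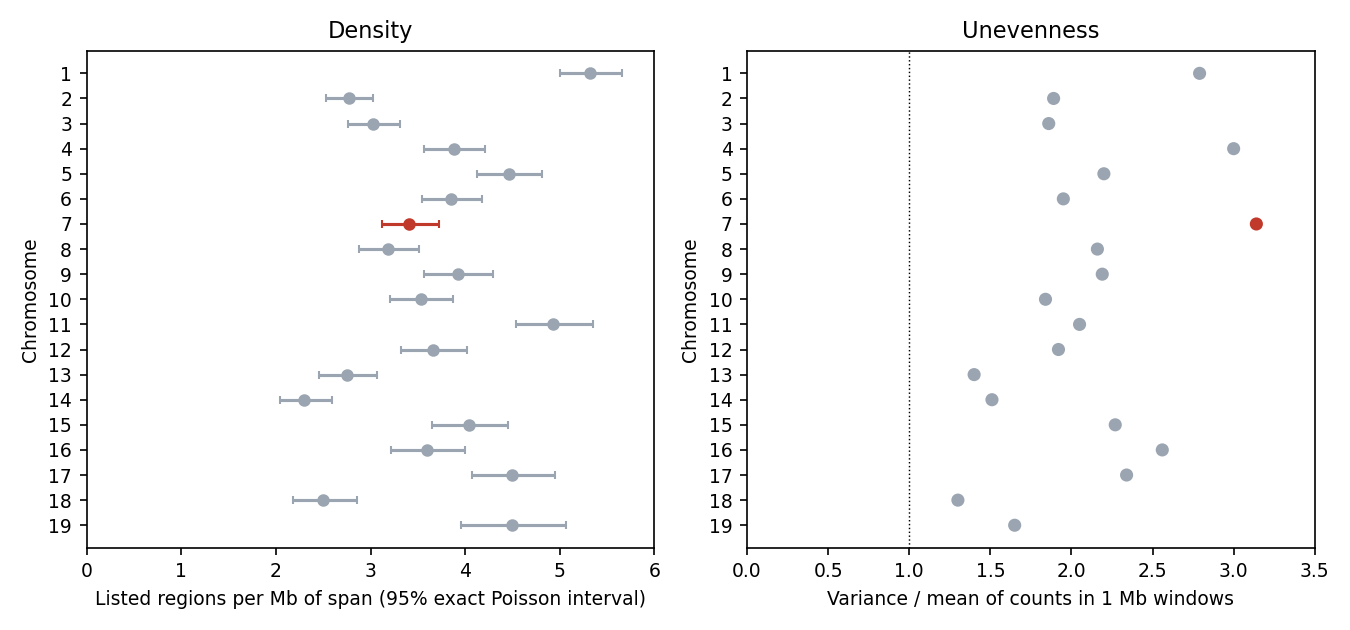
Left, listed regions per Mb of span for each of the 19 autosomes, with 95% exact Poisson intervals; right, the variance of the counts in 1 Mb windows divided by their mean, with a dotted line at 1. Chromosome 7 (red) sits among the other autosomes in density (3.41 per Mb) and at the top in unevenness (3.14).

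Seen in windows of 10 Mb, the density rose and fell several times along the chromosome. It was 1.80 regions per Mb before 10 Mb (12 regions, 95% exact Poisson interval 0.928 to 3.14), climbed to 4.8 between 30 and 40 Mb (48 regions, 3.54 to 6.36) and dropped to 1.70 between 40 and 50 Mb (17 regions, 0.990 to 2.72). The window from 50 to 60 Mb was the fullest, with 68 regions or 6.80 per Mb (5.28 to 8.62). A second rich part followed between 70 and 80 Mb, with 54 regions or 5.40 per Mb (4.06 to 7.05). A long poor part lay between 90 and 120 Mb, where the 3 windows held 9, 27 and 13 regions, and the first of them was the sparsest full window of the chromosome at 0.900 per Mb (0.411 to 1.71). From 120 Mb the counts were 29, 35 and 37 per window. The intervals of the fullest and the sparsest window were far apart, whereas those of neighbouring windows often overlapped. The fullest and sparsest windows were picked for their counts, and the intervals treat regions as independent. Their separation is therefore a description only.

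**Figure D2:**
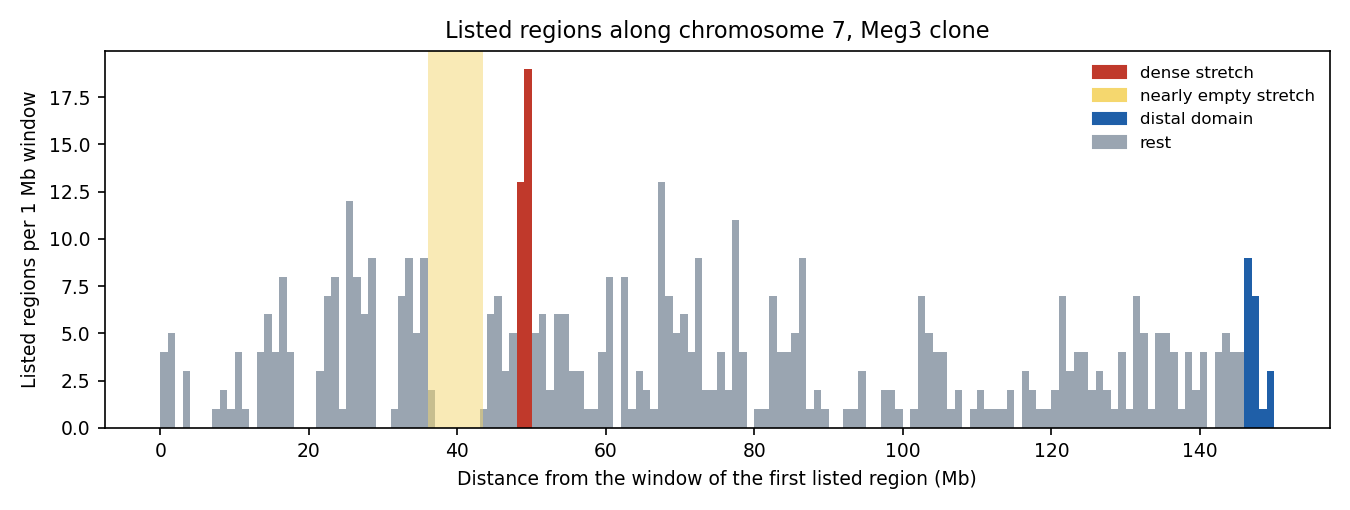
Listed regions in each 1 Mb window of chromosome 7, by distance from the window that holds the first listed region; colours mark the dense stretch, the distal domain and the rest, and the yellow band marks the nearly empty stretch. The tallest bar holds 19 regions, and the bars of the distal domain hold 9, 7, 1 and 3.

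The distal imprinted domain held more regions per Mb than the rest of the chromosome, while its difference from the ends of the other autosomes did not pass the test. From 149 Mb to the last region it spanned 3.46 Mb and held 20 regions, a density of 5.78 per Mb (exact Poisson interval 3.53 to 8.92 at the 95% level), against 489 regions or 3.36 per Mb (3.07 to 3.67) on the rest of chromosome 7. The ratio was 1.72 (95% interval 1.04 to 2.69, exact conditional test, two-sided p = 0.0253). It no longer passed when empty stretches over 2 Mb were left out of the span (1.41, 0.855 to 2.21, exact two-sided p = 0.138). Against the last stretch of the same length on the other 18 autosomes, which held 309 regions at 4.96 per Mb, the ratio was 1.17 (0.702 to 1.83, exact two-sided p = 0.46). The test treats regions as independent, which the patchiness above does not bear out. The domain was also chosen with earlier results of these data known, and its far bound is itself a listed region. As a plain measure of rarity, 7 of the 42 other windows of this length on chromosome 7 (16.7%) and 111 of the 640 on the other autosomes (17.3%) held at least as many regions.

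Among the 19 autosomal ends the end of chromosome 7 shared rank 7 with that of chromosome 5, both with 20 regions. The ends of chromosomes 1 (34 regions), 15 (29), 4 and 11 (26 each), 10 (24) and 2 (23) held more, and 11 ends held fewer, down to 4 on chromosome 18. Divided by the density of its own chromosome, the end of chromosome 7 came to 1.69 and ranked 6. The end of chromosome 2 was at 2.40 by that measure and the end of chromosome 12, the chromosome of Meg3, at 0.71. The intervals of chromosome 7 overlapped with those of all other ends but 1, that of chromosome 18, whose upper bound of 2.96 per Mb lay below the lower bound of 3.53 per Mb.

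**Figure D3:**
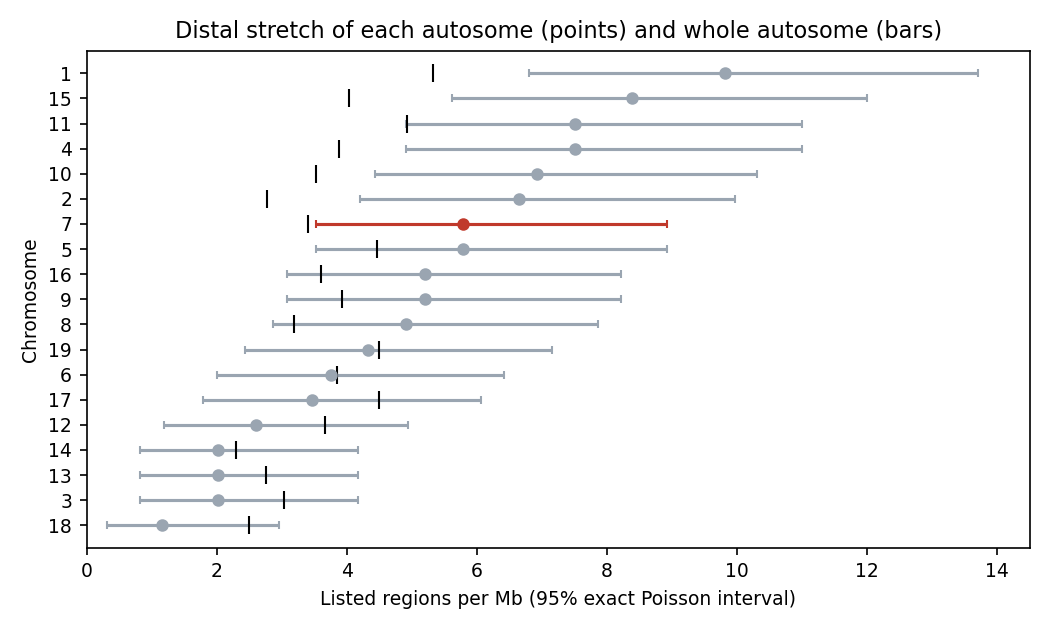
Listed regions per Mb in the last 3.46 Mb of the listed span of each autosome (points, with 95% exact Poisson intervals) and over the whole autosome (short black bars). The end of chromosome 7 (red, 5.78 per Mb) lies above its chromosome's 3.41 per Mb and in the upper middle of the ends.

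Within the distal domain more of the regions lay in the first part, a difference that was not tested. The nearer 1.73 Mb of the range held 14 regions (8.09 per Mb, 95% exact Poisson interval 4.42 to 13.6) and the farther 1.73 Mb held 6 (3.47 per Mb, 1.27 to 7.55), and these intervals overlapped. The last region before the domain lay at 148680020-148680146, and 4 regions lay in the 1 Mb before it. The domain opened with a region of 116 bp at 149034170-149034285, followed by the narrowest of its regions, 43 bp at 149142679-149142721. The widest pair came next, with 245 bp at 149169847-149170091 and 248 bp at 149227624-149227871. After a region of 179 bp at 149552556-149552734 came the closest pair of the domain, 220 bp at 149775259-149775478 and 125 bp at 149775564-149775688, only 85 bp apart. A region of 233 bp at 149835340-149835572 followed 59.7 kb further on, and a region of 126 bp at 149977922-149978047 ended the first Mb with 9 regions.

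Beyond 150 Mb the domain went on at a similar pace for almost another Mb and then thinned. A group of 4 regions lay close together, at 150115673-150115884 (212 bp), 150172132-150172250 (119 bp), 150192907-150193070 (164 bp) and 150248889-150249060 (172 bp). The next regions were more scattered, at 150580327-150580393 (67 bp), 150772648-150772857 (210 bp) and 150916644-150916866 (223 bp). Then 1.07 Mb passed without a region, the longest such stretch in the domain. The final 4 regions lay at 151985486-151985697 (212 bp), 152019512-152019614 (103 bp), 152403244-152403400 (157 bp) and 152461110-152461278 (169 bp), the last listed region of the chromosome. In the distal domain all regions were of modest width, with a median of 170 bp and a range from 43 to 248 bp. None of the 20 reached 500 bp (95% exact Clopper-Pearson interval 0 to 16.8%), against 20 of 509 on the chromosome as a whole.

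The stretch from 51 to 53 Mb held more regions than any of the other 2 Mb windows counted on the chromosome, and 4 of them were 500 bp or wider. It was picked for its count, so its density is given as a description. It held 32 regions at a density of 16 per Mb (95% exact Poisson limits 10.9 and 22.6), which is 4.69 times the density of the chromosome. The 2 Mb before it held 8 regions and the 2 Mb after it 11. The windows were laid end to end on a grid set by this stretch, and other 2 Mb stretches were not counted. On that grid none of the 72 other windows of 2 Mb on chromosome 7 held more than 16 regions. Off the grid, the 1 Mb windows from 28 to 30 Mb held 12 and 8 regions. Those from 70 to 72 Mb held 13 and 7. Of the 1178 other grid windows over all autosomes, 1 was fuller, with 36 regions on chromosome 1 from 89 Mb. Of the 1 Mb windows of the chromosome, the fullest were those starting at 52 Mb (19 regions), 51 Mb and 70 Mb (13 each), 28 Mb (12) and 80 Mb (11).

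Regions in the dense stretch were not bunched at 1 spot, but they were not evenly spread either. Most of them lay in a run from 51556562 to 51924260 and in another from 52416273 to 52820138. The median distance between neighbours was 35.1 kb, and the shortest was 1.13 kb, so none of the 32 had a neighbour within 1 kb. The count was 13 in the first Mb and 19 in the second. The 10 widest regions of the stretch began with 962 bp at 51761695-51762656, the widest region of any nuclear chromosome in the list. They went on with 849 bp at 52748179-52749027, 642 bp at 52350668-52351309 and 547 bp at 52201450-52201996. Below 500 bp followed 489 bp at 51597578-51598066, 345 bp at 51715162-51715506, 344 bp at 51174645-51174988, 298 bp at 51898662-51898959, 242 bp at 52605559-52605800 and 226 bp at 52666110-52666335. The other 22 regions were 107 to 221 bp wide.

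**Figure D4:**
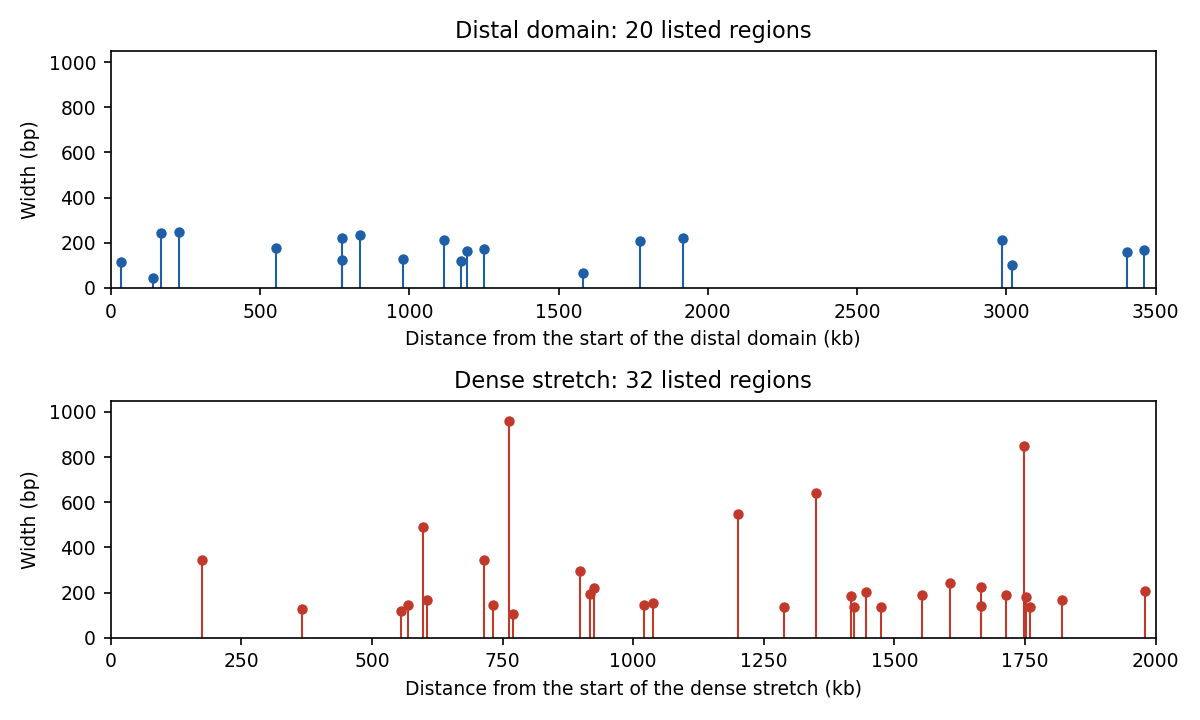
Width of each listed region in the distal domain (top, 20 regions) and the dense stretch (bottom, 32 regions), by distance from the start of each. Widths in the distal domain stay at or below 248 bp, whereas the dense stretch holds 4 regions of 500 bp or more, up to 962 bp.

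The longest empty stretch of any autosome lay on chromosome 7, between 39112196 and 46531426. It was 7.42 Mb long, and the next longest on any autosome was 4.60 Mb on chromosome 3. A fixed floor of 3 regions for a count of 0 gives 0.404 per Mb over this length. The 95% exact Poisson interval used for the other densities reached 0.497 per Mb. Both values cover counting error only and are a description, since the stretch was picked for being empty. The range from 39 to 46.5 Mb was not wholly empty: 2 regions lay at its near edge, 147 bp at 39004809-39004955 and 45 bp at 39112152-39112196. Regions were listed on both sides of the empty stretch, but the first region past its far edge was followed by 586 kb without another. The 2 Mb before the empty stretch held 15 regions (7.50 per Mb, 95% exact Poisson interval 4.2 to 12.4), and the 2 Mb after it, which open with 159 bp at 46531426-46531584, held 9 (4.50 per Mb, 2.06 to 8.54). From its end to the start of the dense stretch at 51 Mb, 22 regions were listed. Whether this stretch holds an assembly gap, or sequence in which 50 bp reads cannot be placed uniquely, was not tested.

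Other long empty stretches lay mostly in the first part of the chromosome. After the longest, the next 4 on chromosome 7 were 4.32 Mb from 20548778 to 24867007, 4.04 Mb from 6843006 to 10886192, 3.07 Mb from 31862621 to 34933877 and 3.03 Mb from 92420574 to 95455194. Chromosome 7 held 3 of the 6 longest empty stretches of all autosomes. The 7 stretches over 2 Mb took up 17.6% of its span, and only chromosome 2, at 19.3%, had a higher share. The median of the other 18 autosomes was 5.94%. The first 10% of the span of chromosome 7 held 31 regions (6.09%) and the last 10% held 59 (11.6%). That last share was below that of 14 of the other 18 autosomes.

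Region widths on chromosome 7 were much like those elsewhere. The median was 157 bp (quartiles 114 and 240) on chromosome 7 and 164 bp (113 and 254) on the other autosomes. A width of 500 bp or more was found for 20 of 509 regions, or 3.93% (95% exact Clopper-Pearson interval 2.42 to 6.00), against 3.53% (3.14 to 3.95) on the other autosomes. Narrow regions, under 100 bp, numbered 93, or 18.3% (15.0 to 21.9), against 18.9% (18 to 19.7). Both pairs of intervals overlapped. Together the regions of chromosome 7 covered 99990 bp, or 0.067% of its span.

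The wide regions were not evenly placed. The window from 50 to 60 Mb, the fullest with 68 of the 509 regions, held 8 of the 20 regions of 500 bp or more. Among these 8 were the 4 of the dense stretch. There, 4 of the 32 regions were that wide, or 12.5% (95% exact Clopper-Pearson interval 3.51 to 29.0). Outside the dense stretch and the distal domain the share was 16 of 457, or 3.5% (2.01 to 5.62), and these intervals overlapped. No region under 100 bp was listed in the dense stretch, against 91 of 457 outside (19.9%, 16.3 to 23.9). The interval for 0 of 32 reached 10.9%, below that range. However, the dense stretch was picked from the same list for its count, and these intervals treat regions as independent. The separation is therefore a description only, and the difference in narrow regions was not tested. Just after the dense stretch, the 11 regions from 53 to 55 Mb had a median width of 338 bp. Of the 10 widest regions of the chromosome, 3 lay in the dense stretch, as given above. The others were 870 bp at 86508131-86509000, 716 bp at 85865291-85866006, 631 bp at 54126898-54127528, 607 bp at 57371233-57371839, 600 bp at 73221811-73222410, 598 bp at 97964360-97964957 and 583 bp at 47117622-47118204.

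Very close neighbours were few, though their share was above that of most other autosomes. None lay in the dense stretch, which held only 32 of the 509 regions. A neighbour under 1 kb away was found for 14 of 509 regions (2.75%, 95% exact Clopper-Pearson interval 1.51 to 4.57), which form 7 pairs. The share on the other autosomes ran from 0% on chromosome 18 to 3.75% on chromosome 11, with a median of 1.45%, and 2 of the 18 exceeded chromosome 7. The closest pair lay at 48890504-48890604 and 48890669-48890716, with 64 bp between its members. Next, at 85 bp each, came the pair in the distal domain and a pair at 70234621-70234683 and 70234769-70234945. The remaining pairs among the 5 closest lay at 36650189-36650459 and 36650567-36650677, 107 bp apart, and at 3503262-3503371 and 3503548-3503638, 176 bp apart. In 6 of the 7 pairs both members were narrower than 500 bp, a width that only 3.93% of all chromosome 7 regions reached. Whether such a pair is 1 stretch of signal listed as 2 regions was not tested. Over all neighbours the median distance was 136 kb on chromosome 7 and 144 kb on the other autosomes. Distances under 10 kb made up 8.07% and 5.71% of them, and distances over 1 Mb 5.71% and 4.49%.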

How the data were processed

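The series holds genomic DNA from 6 ChIRP and input libraries (50 bp single-end reads, per the labels). Which of them entered the list is not given. The authors deposited positions with other columns that hold only placeholders (n/a, or a score of 0, in all 9010 rows). The build is mm9, per the submitters' processing notes. The aligner, peak caller, threshold and use of the input and probe pools, and the meaning of "unique" in the name of the list, are not given in the sources used here, and read depth is unknown. Starts were converted to count from 1, and width is end minus deposited start. The span of a chromosome is the distance between its outermost listed regions, assembly gaps included. Densities carry exact Poisson intervals and shares exact Clopper-Pearson intervals. Ratios of densities carry an exact conditional binomial test (scipy 1.17.1, Python 3.11.15, two-sided, threshold 0.05). That test was tried on simulated independent Poisson counts, which lack the patchiness of the listed regions. The trial therefore does not show how the test behaves on the list. Regions of 1 list are not replicates. The chromosome, its stretches and the gene lists were chosen with earlier results of these data known; the dense and empty stretches were chosen for their counts and were not tested. Every region of the distal domain, the 10 widest of the dense stretch and of the chromosome, the 5 closest pairs, the 5 fullest windows and the 5 longest empty stretches are named. Analyses that need mm9 genes or sequence were not run. Ratios of variance to mean were added after seeing the data. The alternatives tried were wider regions only, merged neighbours, other spans, windows and reference sets.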

Additional observations from a re-analysis of the deposited data

How the results depend on the processing

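The distal domain stayed denser than its reference under each of the 7 alternatives that changed its counts or spans (ratio 1.17 to 2.16). Leaving out dense windows of 100 kb removed nothing from chromosome 7. The distal ratio no longer passed the exact two-sided test with empty stretches over 2 Mb left out (ratio 1.41, p = 0.138) or against the ends of the other autosomes (ratio 1.17, p = 0.46). It passed narrowly with neighbours under 1 kb merged (ratio 1.66, 95% interval 0.988 to 2.61, exact two-sided p = 0.0368). Against all other autosomal sequence it also passed narrowly (ratio 1.56, 0.953 to 2.41, exact two-sided p = 0.0498). Both of these intervals included 1. For the whole chromosome against the other autosomes, the ratio passed with neighbours under 1 kb merged (0.912, exact p = 0.0446) and turned to 1.02 without the stretches over 2 Mb; the other 6 alternatives gave 0.881 to 0.970, none past the threshold. With regions at or above the median width of 164 bp alone, the longest empty stretch grew to 8.39 Mb, since fewer regions remain, and the dense stretch rose to 6.06 times its chromosome. The variance to mean ratio, whose alternatives were chosen after seeing the data, as were 2 for the whole chromosome and 1 for the distal domain, was 2.62 without the dense stretch (rank 3 of 19), 2.99 without the windows inside the longest empty stretch (rank 2) and 2.48 without both (rank 4). When every autosome lost its 2 fullest windows, chromosome 7 still ranked 1 (2.62, next 2.55). No paired analysis was possible because no group has a second library and nothing in the list is given library by library. Overlap with genes and sequence composition were not run, and nor was a stricter threshold, for want of a score.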
